A study of Mus musculus with 8 samples.

Results

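The genes of the mTOR complexes and their upstream regulators were examined in B cells that lack, or retain, the miR-15/16 microRNAs. The 10 genes were taken by symbol from the deposited count table, which holds 24746 genes, and all 10 were found in it. They were Mtor, Rptor, Rictor, Mlst8 and Deptor of the complexes, Tsc1, Tsc2 and Rheb of the switch above mTORC1, and the sestrins Sesn1 and Sesn3. The study sequenced RNA of B cells sorted from mouse bone marrow at 10 to 12 weeks of age. In the 4 miR-15 dKO mice (below dKO) the genotype was miR-15a/bfl/fl Vav-Cre, that is, both miR-15/16 clusters carried loxP sites, and in the 4 controls it was miR-15a/b+/+ Vav-Cre. All 8 mice therefore carried Vav-Cre, which is active throughout the blood lineage, so the deletion was not restricted to B cells. The sample labels name the cells B1a B cells and the series text names them pro-B cells.

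mTOR is a kinase that works in a pair of complexes. mTORC1, defined by raptor, promotes translation and growth when growth factors and amino acids are present, and mTORC2, defined by rictor, phosphorylates AKT. The TSC complex of hamartin and tuberin keeps the GTPase RHEB inactive, and GTP-bound RHEB switches mTORC1 on. Sestrins report stress and amino acid shortage and restrain mTORC1. In developing B cells mTOR signalling lies downstream of the IL-7 receptor, the receptor named in the title of the series.

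The microRNAs removed in the dKO mice share 1 seed, bases 2 to 8, which pairs with matching letters in the 3′ UTR of target transcripts. Their mature sequences (RefSeq, GRCm38.p6) are given 5′ to 3′ with the seed in capitals, because the matches described next are read from it. miR-15b-5p lies at chr3:69009775-69009796 on the plus strand and miR-15a-5p at chr14:61632075-61632096 on the minus strand. The same miR-16-5p is made from both clusters. The seed is also carried by miR-195a-5p, miR-195b, miR-497a-5p, miR-322-5p, miR-6342, miR-6353 and miR-6419, which lie outside the 2 targeted clusters. The matches are therefore not specific to the removed microRNAs, whose sequences follow.
mmu-miR-15a-5p: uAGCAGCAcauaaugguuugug
mmu-miR-15b-5p: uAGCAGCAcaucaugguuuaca
mmu-miR-16-5p: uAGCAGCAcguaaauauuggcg

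Of the 10 genes, 6 held the letters TGCTGCT, which pair with bases 2 to 8, in their longest annotated 3′ UTR (GENCODE M21, GRCm38, transcript strand). These were Rictor, Mlst8, Tsc1, Deptor, Sesn1 and Sesn3, while Mtor, Rptor, Tsc2 and Rheb held neither these letters nor GCTGCTA, the match to bases 2 to 7 followed by A. Of all genes tested that had a 3′ UTR, 24.7% held TGCTGCT. The UTRs differed in length, from 789 bases in Tsc2 to 7395 bases in Sesn3, against a median of 1132.5 bases over the genes tested. Sesn1 was the 1 gene of the 10 with an 8-base match, TGCTGCTA, which 4.49% of the genes tested held. Its UTR has 1066 bases, and the starts of its 2 matches lie 40 bases apart. In Deptor and Sesn3 a match of either kind was present in 1 of 3 annotated coding transcripts, in Mlst8 in 5 of 6, and in Rictor, Tsc1 and Sesn1 in each coding transcript. The TGCTGCT sites of 4 genes are shown with the match in capitals, Sesn1 for its 8-base match, Tsc1 for its pair of matches, and Rictor and Mlst8 for the complexes. Rictor also held 2 GCTGCTA matches, at bases 2902 to 2908 and 3849 to 3855, which are not shown.
Sesn1 site 1 (bases 394 to 400 of the UTR, chromosome 10): ttgagtggcgctcggTGCTGCTgtgc
Sesn1 site 2 (bases 434 to 441, chromosome 10): gctatttggctgagTGCTGCTAccac
Tsc1 site 1 (bases 2596 to 2602, chromosome 2): agtctctctgccccaTGCTGCTgtag
Tsc1 site 2 (bases 3172 to 3178, chromosome 2): gggacatcactgggcTGCTGCTtcca
Rictor TGCTGCT site (bases 1583 to 1589, chromosome 15): acaagggctctaagcTGCTGCTcaca
Mlst8 site (bases 1676 to 1682, chromosome 17): cagcagcagcaggccTGCTGCTctcc

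Library totals ran from 25565090 to 34954230 counts. Levels are given as CPM, the counts scaled to a common library total. A level of 3 counts, the limit that a count of 0 allows, is 0.0854 to 0.111 CPM, which covers counting error only. The 6 genes of B cell identity (Cd79a and others) summed to 21817 to 23944 CPM in dKO libraries and 22774 to 25860 CPM in controls. The 10 B-1a markers were all detected above 1 CPM on average and summed to 1303 to 1770 CPM in dKO libraries and 575 to 1350 CPM in controls. Only 2 of 9 pro-B markers reached that level, and Kit had no count, which goes against the name pro-B cells. The mean log2 CPM of the B-1a markers was 6.28 to 6.52 in dKO libraries. In controls 1 to 4 it was 5.94, 4.997, 5.46 and 4.998, so every dKO library lay above every control. Dleu2, which hosts the miR-15a cluster, stood at 90.3 ± 16.3 CPM in dKO libraries and 17.96 ± 5.95 CPM in controls (SD, n = 4 each). The precursor rows Mir15a, Mir16-1, Mir15b and Mir16-2 held 0 counts throughout and do not check the deletion. In these bulk libraries, fewer cells of a type and less RNA per cell cannot be told apart.

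None of the 10 genes was called as different between dKO and control libraries, and in all 10 the groups overlapped. All 10 passed the filter on low counts. In the edgeR quasi-likelihood test 0 of 10 had an adjusted p under 0.05, where 0.088% of the 11363 genes tested were called (0.0616% higher and 0.0264% lower in dKO libraries), and 0 of 10 had an unadjusted p under 0.05, against 10.8% of the genes tested. DESeq2 and limma voom with quality weights also called 0 of the 10, where they called 2.84% and 2.48% of all genes. Groups without overlap were found in 0 of the 10, against 6.96% of the genes tested. Of the 10 log2 fold changes (dKO over control), 4 were positive and 6 negative, with a median of -0.09. Over all genes tested 47.7% were positive and the median was -0.016. The 10 values lay between -0.40 for Sesn1 and 0.23 for Tsc1.

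**Figure D1:**
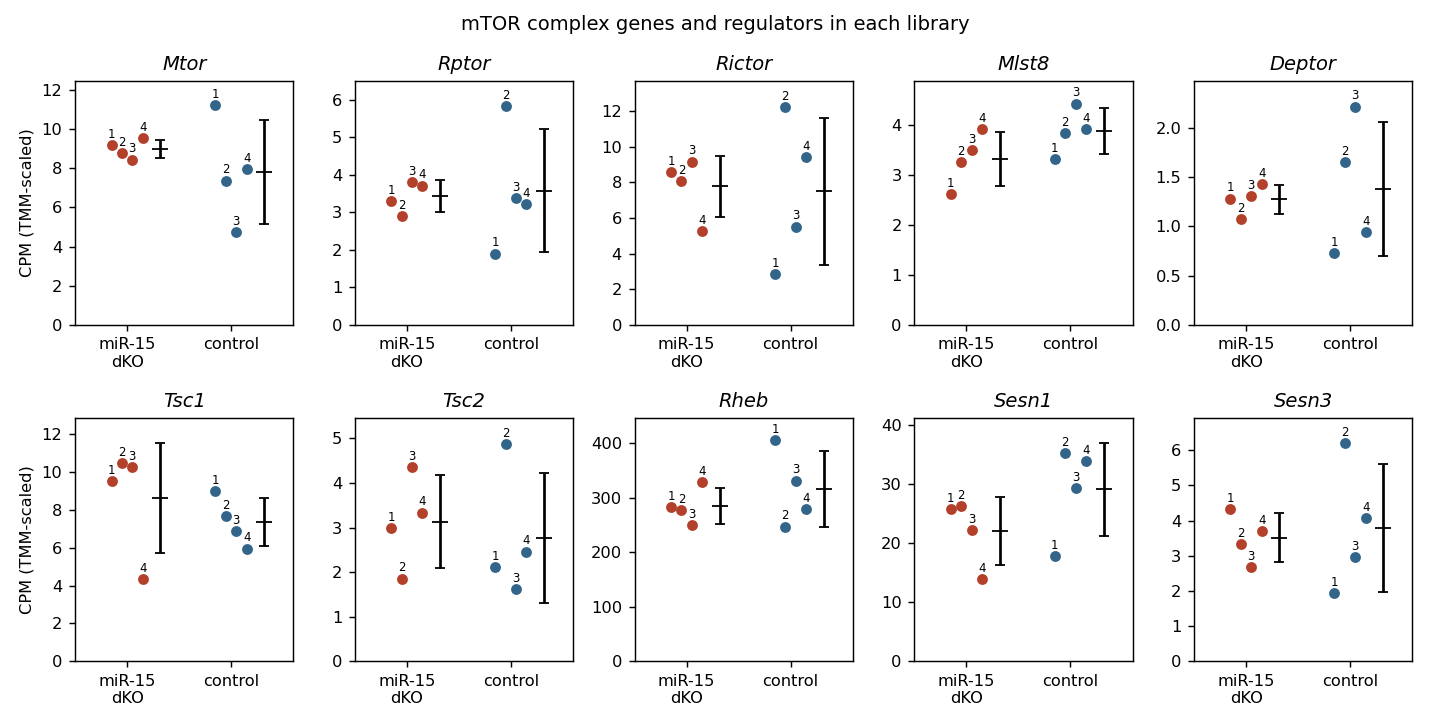
Level of each of the 10 genes in every library (CPM, linear axes starting at 0), with dKO libraries in red on the left and controls in blue on the right, numbered by replicate. Black bars give the mean ± SD (n = 4). In every panel the red and blue points overlap, and the controls of Mtor, Rptor, Rictor, Deptor and Sesn3 are spread more widely than the dKO libraries.

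Mtor, the kinase itself, was measured at 9.19, 8.80, 8.45 and 9.54 CPM in dKO libraries 1 to 4 and at 11.2, 7.37, 4.75 and 7.95 CPM in controls 1 to 4. The dKO values sat close together inside the range of the controls. The means were 8.996 ± 0.47 CPM in dKO libraries and 7.82 ± 2.66 CPM in controls (SD, n = 4 each). Their log2 difference was 0.20 ± 0.25 (SE, edgeR adjusted p = 0.84). The 95% interval of the difference, -0.34 to 0.74 on the log2 scale, spans 0.791-fold to 1.67-fold. Counts of 135 to 323 per library lay behind these values.

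Rptor encodes raptor, the scaffold that brings substrates to mTORC1. Its level was 3.30, 2.90, 3.81 and 3.71 CPM in dKO libraries 1 to 4, against 1.90, 5.83, 3.38 and 3.23 CPM in controls 1 to 4. Both the lowest and the highest of the 8 values were controls, control 1 and control 2. Its log2 fold change was -0.06 ± 0.34 (SE, edgeR adjusted p = 0.97, 95% interval -0.80 to 0.68). The antisense gene Rptoros overlaps Rptor, and held at most 0.103 CPM in dKO libraries and 0.0337 CPM in controls.

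Rictor, the defining subunit of mTORC2, had 8.57, 8.10, 9.17 and 5.28 CPM in dKO libraries 1 to 4 and 2.84, 12.2, 5.52 and 9.41 CPM in controls 1 to 4. The controls differed 4.30-fold among themselves and the dKO libraries 1.74-fold, with dKO 4 below the other 3. The mean was 7.78 ± 1.72 CPM in dKO libraries and 7.50 ± 4.15 CPM in controls (SD, n = 4 each). The log2 fold change was 0.05 with an SE of 0.38 (edgeR adjusted p = 0.98, 95% interval -0.79 to 0.89). The value rested on the libraries included. Without control 2 and control 4 it was 0.90 (adjusted p = 0.28, a fit that called 0.499% of all genes). Without control 1 it was -0.21 (adjusted p = 0.82, a fit that called 0.851%).

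Mlst8, a subunit that both complexes share and that stabilises the kinase, was at 2.62, 3.27, 3.50 and 3.92 CPM in dKO libraries 1 to 4, against 3.32, 3.84, 4.43 and 3.93 CPM in controls 1 to 4. These were narrow ranges in both groups, and only dKO 1 and dKO 2 fell below all controls. For Mlst8 the log2 fold change was -0.22 ± 0.26 (SE, edgeR adjusted p = 0.83, 95% interval -0.78 to 0.34). Bricd5, which overlaps Mlst8 on the opposite strand, had no count in any library.

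Deptor, an inhibitor that binds both complexes, was the scarcest of the 10, at 29 to 45 counts per dKO library and 20 to 63 per control. It stood at 1.28, 1.077, 1.31 and 1.43 CPM in dKO libraries 1 to 4 and at 0.73, 1.65, 2.22 and 0.94 CPM in controls 1 to 4. The dKO values lay inside the range of the controls. On the log2 scale the difference was -0.12 ± 0.45 (SE, edgeR adjusted p = 0.96), with the widest interval of the 10, -1.10 to 0.87. Gm9920, on the opposite strand, held at most 0.186 CPM in dKO libraries and 0.0704 CPM in controls. A difference of 2-fold downward in Deptor, or of 2-fold upward in Tsc2, was within what these libraries allow.

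Tsc1 encodes hamartin, which stabilises the TSC complex. It was at 9.51, 10.5, 10.2 and 4.33 CPM in dKO libraries 1 to 4, against 8.97, 7.64, 6.86 and 5.95 CPM in controls 1 to 4. The first 3 dKO libraries lay above every control, and dKO 4 lay below every control. For Tsc1 the log2 fold change was 0.23 ± 0.28 (SE, edgeR adjusted p = 0.84, 95% interval -0.38 to 0.84), and 0.45 without dKO 4 (adjusted p = 0.45).

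Tsc2 encodes tuberin, which carries the GTPase-activating domain of the complex. Its values were 2.99, 1.86, 4.36 and 3.34 CPM in dKO libraries 1 to 4 and 2.11, 4.88, 1.62 and 2.46 CPM in controls 1 to 4. The groups were interleaved, with control 2 highest and control 3 lowest. For Tsc2 the log2 fold change was 0.18 ± 0.40 (SE, edgeR adjusted p = 0.93, 95% interval -0.69 to 1.05), and 0.75 without control 2 and control 4 (adjusted p = 0.44). Exons of Pkd1 overlap Tsc2 on the opposite strand, and Pkd1 itself held 1.12 to 1.89 CPM in dKO libraries and 1.02 to 1.85 CPM in controls, so a part of the low Tsc2 counts could belong to either gene if strand was not used.

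Rheb, the GTPase that activates mTORC1, was far more abundant than the other 9. It was at 283, 277, 250.2 and 329 CPM in dKO libraries 1 to 4, against 406, 247, 332 and 279 CPM in controls 1 to 4. Control 1 was the highest and control 2 the lowest library. For Rheb the log2 fold change was -0.15 ± 0.18 (SE, edgeR adjusted p = 0.84), and the interval of -0.54 to 0.24 was the narrowest of the 10. Without control 1 the log2 fold change was 0.0039 (adjusted p = 0.99).

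Sesn1, a sestrin known to be induced by p53 and FOXO factors, had the largest difference in size among the 10. It stood at 25.8, 26.2, 22.3 and 13.9 CPM in dKO libraries 1 to 4 and at 17.9, 35.3, 29.3 and 33.9 CPM in controls 1 to 4. All 4 dKO libraries lay below control 2, control 3 and control 4, while control 1 lay below dKO 1, dKO 2 and dKO 3. The means were 22.04 ± 5.71 CPM in dKO libraries and 29.1 ± 7.92 CPM in controls (SD, n = 4 each). The difference of -0.40 ± 0.25 on the log2 scale (SE, 95% interval -0.94 to 0.14) did not pass in edgeR (unadjusted p = 0.13, adjusted p = 0.63). It was -0.57 without control 1 (adjusted p = 0.28) and -0.10 without control 2 and control 4 (adjusted p = 0.91). The difference had a negative sign in each of the 19 alternative fits (adjusted p 0.28 to 0.91). These fits share libraries, so their like signs are not independent of each other. Sesn1 carries the 8-base seed match printed above, and a relation of the match to its level was not tested.

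Sesn3, a FOXO-induced sestrin, was at 4.33, 3.34, 2.68 and 3.71 CPM in dKO libraries 1 to 4, against 1.93, 6.20, 2.96 and 4.08 CPM in controls 1 to 4. Controls 1 and 2 enclosed the dKO values, as they did for Rptor. For Sesn3 the log2 fold change was -0.11 ± 0.36 (SE, edgeR adjusted p = 0.95, 95% interval -0.89 to 0.67), and 0.53 without control 2 and control 4 (adjusted p = 0.54).

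**Figure D2:**
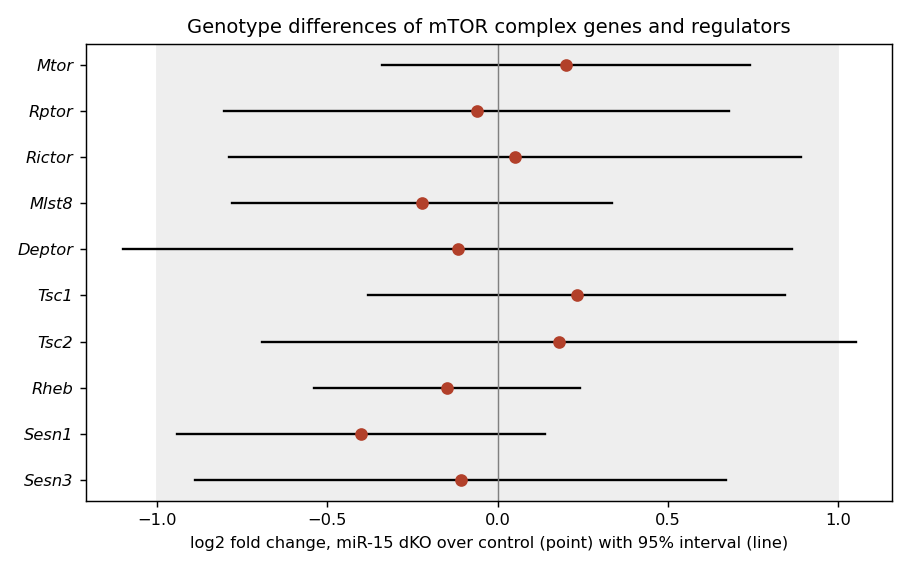
Log2 fold change of each gene, dKO over control (points), with its 95% interval from the edgeR fit (lines). All intervals cross 0, and the shaded band marks changes of up to 2-fold in either direction, which the intervals of Deptor (lower end -1.10) and Tsc2 (upper end 1.05) leave.

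The log2 fold changes of the 6 genes with TGCTGCT in the 3′ UTR overlapped those of the other 4. The median of the 6 was -0.11, with 2 positive and 4 negative. The median of the 4 genes without the letters was 0.06, with 2 of each sign. Over all genes tested the median was 0.019 for the 2641 genes with the letters and -0.037 for the 8031 with a 3′ UTR and none. Of those genes, 52.6% with the letters and 45.0% without them had positive values. These medians and shares are descriptions and were not tested, and neither was the part of gene length in them.

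Per kilobase of annotated exon (GENCODE M21), Rheb had the highest level, at 36.9 ± 4.24 CPM per kb in dKO libraries and 40.9 ± 8.97 CPM per kb in controls (SD, n = 4 each). Sesn1 followed at 5.53 ± 1.43 CPM per kb in dKO libraries and 7.31 ± 1.99 CPM per kb in controls. Mtor, Mlst8 and Tsc1 came next in dKO libraries, at 0.890, 0.750 and 0.730 CPM per kb on average, and at 0.774, 0.875 and 0.622 CPM per kb in controls. Rictor averaged 0.459 CPM per kb in dKO libraries and 0.443 CPM per kb in controls. Tsc2, Rptor and Sesn3 averaged between 0.230 and 0.326 CPM per kb in dKO libraries and between 0.248 and 0.288 CPM per kb in controls. Deptor was lowest, at 0.144 ± 0.017 CPM per kb in dKO libraries and 0.156 ± 0.077 CPM per kb in controls (SD, n = 4 each). Below Sesn1, neighbours in this order differed by less than the sum of their SDs, except Sesn3 and Deptor in the dKO libraries and Mlst8 and Tsc1 in the controls, where Mtor stood between them. The length sums all annotated exons of a gene, so it overstates the length of genes with many alternative exons.

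No difference in the proportions between partner genes was detected. Log2 Rictor over Rptor, the mTORC2 scaffold against the mTORC1 scaffold, averaged 1.16 ± 0.44 in dKO libraries and 0.98 ± 0.43 in controls (SD, n = 4 each, exact permutation p = 0.60, two-sided). Log2 Sesn1 over Sesn3 averaged 2.63 ± 0.52 in dKO libraries and 3.02 ± 0.36 in controls (exact permutation p = 0.23). Log2 Tsc1 over Tsc2 averaged 1.44 ± 0.88 in dKO libraries and 1.52 ± 0.70 in controls (exact permutation p = 0.91). Adjusted over these 3 ratios, which were chosen after the values were seen, the p-values were 0.90, 0.69 and 0.91, and 0.029 is the smallest p that 4 against 4 allows.

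The controls varied more than the dKO libraries in 8 of the 10 genes, by the SD of log2 CPM. That held for 71.4% of all genes tested, so it was common to most genes. For Mtor the SD of log2 CPM was 0.075 in dKO libraries and 0.505 in controls. The exceptions were Mlst8, at 0.240 in dKO libraries and 0.169 in controls, and Tsc1, at 0.606 in dKO libraries and 0.247 in controls.

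The libraries with the most extreme values also differed in the balance of long and short genes. For each library the median deviation of genes with under 1.5 kb of exon was subtracted from that of genes with over 8 kb, on the log2 scale. The result was 0.063, 0.070, 0.27 and -0.26 in dKO libraries 1 to 4 and -0.51, 0.48, -0.048 and -0.042 in controls 1 to 4. Control 1, where long genes were lowest, also held the lowest Rictor, Rptor, Sesn3 and Deptor and the highest Rheb. Rheb, with 7.72 kb of exon, is in neither length class. Yet Mtor and Tsc1, also over 8 kb, did not follow, since Mtor was at its highest of the 8 libraries in control 1 and Tsc1 at its highest among the controls. Tsc2, with 9.62 kb, was lowest in control 3. Control 2, where long genes were highest, held the highest Rictor, Rptor, Tsc2, Sesn3 and Sesn1 and the lowest Rheb. Sesn1, with 3.98 kb of exon, is also in neither length class. Of the dKO libraries, dKO 3 had the highest balance. It held their highest Rictor, Rptor and Tsc2 and lowest Rheb, but also their lowest Mtor and Sesn3. Of the dKO libraries, dKO 4 had the lowest balance and the lowest Rictor, Tsc1 and Sesn1, but also the highest Mtor and Deptor. The part of this balance in the differences between genotypes was not tested.

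Rictor and Rheb moved in opposite directions across the 8 libraries. Over the 45 pairs of the 10 genes, Pearson's r of log2 CPM had a median of 0.081 and ran from -0.98 to 0.82. The pair with the lowest r was Rictor and Rheb, at r = -0.98 (n = 8, exact permutation p = 6.7e-04, 0.030 adjusted over 45 pairs). Spearman's rho was -0.86 (exact permutation p = 0.011, 0.31 adjusted). Without control 1 and dKO 4, the libraries farthest from the Rictor median, r was -0.91. The libraries share the length balance described above, and CPM values are shares of 1 total. No other pair passed after adjustment, although 7 pairs had an unadjusted p under 0.05.

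**Figure D3:**
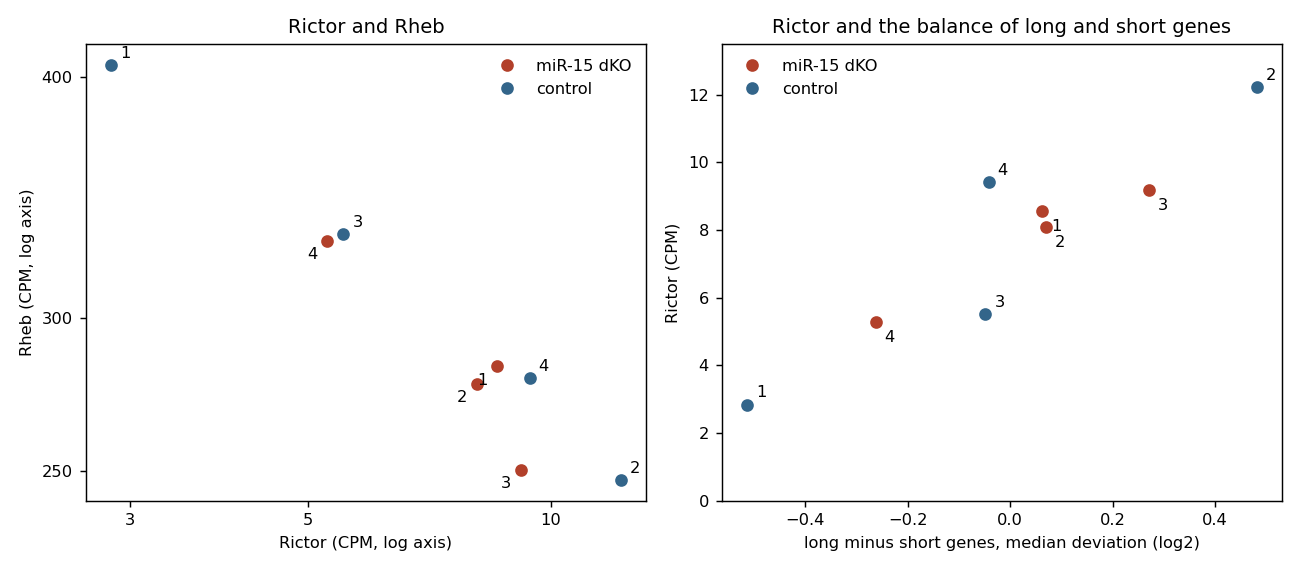
Left, Rheb against Rictor (CPM, log axes) in the 8 libraries, dKO in red and control in blue, numbered by replicate. Right, Rictor (CPM) against the balance of long and short genes (log2). Control 1 and control 2 mark the ends of both plots, and dKO 4 lies beside control 3 on the left.

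A second difference between libraries was the level of follicular B-2 markers, genes of conventional recirculating B cells. The 8 of 9 listed markers found in the table summed to 1082 to 1402 CPM in dKO libraries and to 1178, 2351, 1024 and 2125 CPM in controls 1 to 4. Control 2 and control 4 also held the top Rictor, Sesn1 and Sesn3 values of the controls, and the lowest B-1a marker sums (575 and 720 CPM). With the marker score as a term in the edgeR fit, the log2 fold change was 0.64 for Rictor (adjusted p = 0.53) and 0.59 for Tsc2 (adjusted p = 0.65). It was 0.33 for Sesn3 (adjusted p = 0.79) and -0.23 for Sesn1 (adjusted p = 0.81). No gene of the 10 was called in that fit, which called only 18 of the 11363 genes tested. T cell markers, of which 8 of 9 were found, summed to 150.1 to 284 CPM in dKO libraries and 106 to 272 CPM in controls. Myeloid markers, 8 of 8 found, summed to 488 to 2164 CPM in dKO libraries and 560.5 to 5155 CPM in controls. NK markers summed to 64.4 to 177 CPM in dKO libraries and 17.1 to 176 CPM in controls. Erythroid markers, 5 of 5 found, summed to 0.743 to 8.92 CPM in dKO libraries and 0.387 to 7.22 CPM in controls. Of these, Hbb-bs and Hba-a1 had no count in any library. The part of T, myeloid, NK and erythroid cells, and of the B-1a marker difference, in the values of the 10 genes was not tested.

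The wider pathway was read from 9 lists covering 154 genes in the table besides the 10, of which 144 were tested. None was called in edgeR over all genes tested, and 14 had an unadjusted p under 0.05 (9.72%, against 10.8% of all genes tested). The groups did not overlap in 5 of the 144 (3.47%, against 6.96% of all genes tested), namely Rhebl1, Prr5l, Rraga, Kptn and Atg14. Of the 144, DESeq2 called 3 (2.08%, against 2.84% of all genes) and limma voom 4 (2.78%, against 2.48% of all genes).

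Among other subunits and partners of the complexes, 8 of 9 genes had positive values (median log2 fold change 0.29, beside -0.016 over all genes tested). Of all genes tested 47.7% had positive values, the share to set beside the count for this list and those below. Rhebl1, a close relative of Rheb, was the 1 with a negative value. It stood at 8.63, 8.21, 9.17 and 9.33 CPM in dKO libraries 1 to 4, against 10.4, 21.7, 13.9 and 15.6 CPM in controls 1 to 4, so every dKO library lay below every control. Its log2 fold change was -0.80 ± 0.22 (SE, edgeR adjusted p = 0.18), and DESeq2 and limma voom called it lower (adjusted p = 0.037 and 0.033). In edgeR it was -0.46 without control 2 and control 4 (adjusted p = 0.37). Rhebl1 shares exons with Dhh on the same strand and Gm49442 on the opposite strand, so its counts are uncertain. Prr5l, which encodes a partner of mTORC2, was at 2.42 ± 0.86 CPM in dKO libraries and 1.32 ± 0.11 CPM in controls (SD, n = 4 each, log2 fold change 0.87, edgeR adjusted p = 0.41). Mapkap1, which encodes the mTORC2 subunit SIN1, was at 55.1 ± 1.82 CPM in dKO libraries and 44.6 ± 8.15 CPM in controls (edgeR adjusted p = 0.51). Tbc1d7, the third subunit of the TSC complex, was at 13.3 ± 1.74 CPM in dKO libraries and 10.2 ± 2.41 CPM in controls (edgeR adjusted p = 0.55).

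In the PI3K and AKT arm, which relays growth factor signals to TSC, 10 of 19 tested genes had a positive log2 fold change and the median was 0.016. Pik3r1, the regulatory subunit p85 alpha, stood at 62.5 ± 6.65 CPM in dKO libraries and 46.9 ± 9.21 CPM in controls (SD, n = 4 each, log2 fold change 0.41, edgeR adjusted p = 0.38), and limma voom called it higher (adjusted p = 0.0497). Pik3cd, the catalytic subunit of lymphocytes, was at 40.0 ± 11.6 CPM in dKO libraries and 29.5 ± 3.64 CPM in controls (edgeR adjusted p = 0.46). Akt1 and Pik3cg, the next 2 by p, had edgeR adjusted p of 0.56 and 0.61.

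In amino acid sensing at the lysosome, 15 of 27 tested genes had positive values, and the median log2 fold change was 0.08. Rraga, a Rag GTPase that brings mTORC1 to the lysosome, was at 53.6, 59.5, 44.9 and 65.3 CPM in dKO libraries 1 to 4, against 68.4, 68.6, 75.3 and 108 CPM in controls 1 to 4. All dKO libraries lay below all controls, and the log2 fold change was -0.52 ± 0.18 (SE, edgeR adjusted p = 0.32), or -0.34 without control 4 (adjusted p = 0.64). Slc38a9, an arginine sensor of the lysosomal membrane, was at 18.5 ± 6.12 CPM in dKO libraries and 11.5 ± 1.16 CPM in controls (SD, n = 4 each, log2 fold change 0.68, edgeR adjusted p = 0.32). Nprl3, of the GATOR1 complex, and Bmt2, a sensor of S-adenosylmethionine also called SAMTOR, followed with log2 fold changes of 0.37 and 0.38 (edgeR adjusted p = 0.48 and 0.53), and Bmt2 was at 0.24 without dKO 2. Kptn, of the KICSTOR complex, lies outside the rule for named genes and was named for its non-overlapping groups.

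AMPK, LKB1 and the REDD proteins, which restrain mTORC1 under energy stress, had 9 of 11 positive log2 fold changes and a median of 0.09. Prkab1 was at 16.5 ± 4.15 CPM in dKO libraries and 12.3 ± 2.06 CPM in controls (SD, n = 4 each, edgeR adjusted p = 0.54), and Cab39, Ddit4 and Prkab2 had adjusted p of 0.63 to 0.81. Ddit4, the stress-induced gene of REDD1, was nearly silent, at 0.149 to 0.687 CPM in dKO libraries and 0.067 to 0.41 CPM in controls.

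Of the translation arm, 9 of 15 genes had positive values, and the median log2 fold change was 0.05. Pdcd4, an inhibitor of the eIF4A helicase that S6 kinase marks for degradation, stood at 71.7, 123.8, 70.7 and 85.2 CPM in dKO libraries 1 to 4 and at 34.7, 36.7, 89.7 and 36.3 CPM in controls 1 to 4. Control 3 alone reached the level of the dKO libraries. For Pdcd4 the log2 fold change was 0.83 ± 0.33 (SE, edgeR adjusted p = 0.38), and without control 3 it was 1.29 (adjusted p = 0.046). Without control 2 and control 4 it was 0.50 (adjusted p = 0.58). Eif4e, the cap-binding protein gene, was at 161 ± 22.7 CPM in dKO libraries and 209 ± 35.9 CPM in controls (SD, n = 4 each, edgeR adjusted p = 0.46). Rps6kb1, the gene of S6 kinase, was at 41.6 ± 3.37 CPM in dKO libraries and 33.9 ± 5.76 CPM in controls (edgeR adjusted p = 0.54). Its substrate gene Rps6 was at 1064 ± 107 CPM in dKO libraries and 1435 ± 574 CPM in controls (edgeR adjusted p = 0.58), with control 1 at 2289 CPM and the other controls at 1059 to 1221 CPM. The log2 fold change of Rps6 was -0.43, against -0.10 without control 1 and -0.70 without control 2 and control 4.

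Autophagy and TFEB family genes, which mTORC1 holds in check, had 5 of 15 positive log2 fold changes and a median of -0.07. Atg14, a subunit of the autophagy PI3-kinase complex, was at 6.63, 6.498, 9.21 and 5.11 CPM in dKO libraries 1 to 4, against 3.06, 4.92, 3.24 and 3.46 CPM in controls 1 to 4. Every dKO library lay above every control. For Atg14 the log2 fold change was 0.90 ± 0.26 (SE, edgeR adjusted p = 0.20), and DESeq2 called it higher (adjusted p = 0.048). Atg101, Tfeb and Ambra1 had edgeR adjusted p of 0.54, 0.59 and 0.81.

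Genes known to be induced by mTORC1 through ATF4, HIF1 and SREBP had 7 of 21 positive log2 fold changes and a median of -0.08. Psat1, of serine synthesis, was at 4.59 ± 1.19 CPM in dKO libraries and 7.95 ± 1.68 CPM in controls (SD, n = 4 each, log2 fold change -0.79, edgeR adjusted p = 0.24), and limma voom called it lower (adjusted p = 0.039). Phgdh, the enzyme that opens the same route, was at 119 ± 20.1 CPM in dKO libraries and 96.7 ± 14.1 CPM in controls (edgeR adjusted p = 0.56), so the 2 enzymes had opposite signs. Atf4 and the glucose transporter gene Slc2a1 had edgeR adjusted p of 0.69 and 0.70.

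FOXO factors, which AKT inhibits, and their targets had 6 of 15 positive log2 fold changes and a median of -0.09. Ccr7, a homing receptor, was at 78.5, 108, 68.7 and 148 CPM in dKO libraries 1 to 4 and at 145, 841, 78.7 and 370.1 CPM in controls 1 to 4 (log2 fold change -1.83, edgeR adjusted p = 0.38). The high controls were 2 and 4, and Ccr7 is also in the follicular B-2 marker list. Its log2 fold change was -0.97 without control 2 and -0.15 when control 4 was left out too. Control 2 and control 4 held its highest values, so leaving both out was bound to shrink the difference. Adjusting for the follicular B-2 score gave -0.50, but Ccr7 is part of that score and was adjusted partly for itself. These fits therefore cannot tell whether Ccr7 differed apart from the follicular B-2 markers. Il7r was at 12.0 ± 3.61 CPM in dKO libraries and 6.93 ± 2.80 CPM in controls (SD, n = 4 each, edgeR adjusted p = 0.40), and Pik3ip1, an inhibitor of PI3K, had a log2 fold change of 0.35 (edgeR adjusted p = 0.62). Without control 2 and control 4, Il7r was at 1.39 on the log2 scale (adjusted p = 0.10) and Pik3ip1 at 0.083. Adjusting for the follicular B-2 score gave 1.24 for Il7r and 0.13 for Pik3ip1, and without control 3 Pik3ip1 was at 0.58.

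Genes known to be induced by p53 had 9 of 17 positive log2 fold changes and a median of 0.04. Fas, a death receptor, was at 4.84, 5.83, 2.20 and 6.47 CPM in dKO libraries 1 to 4, against 5.83, 22.9, 10.3 and 15.1 CPM in controls 1 to 4. Control 1 alone reached the dKO range. Its log2 fold change was -1.49 ± 0.42 (SE, edgeR adjusted p = 0.20), and DESeq2 and limma voom called it lower (adjusted p = 0.022 and 0.042). In edgeR the value was -0.74 without control 2 and control 4 (adjusted p = 0.41). Adjusting for the follicular B-2 score gave -0.94 (adjusted p = 0.34). Sesn2, the sestrin outside the 10, was at 2.42 ± 0.55 CPM in dKO libraries and 1.49 ± 0.80 CPM in controls (SD, n = 4 each, log2 fold change 0.70, edgeR adjusted p = 0.63, or 1.06 without control 3). The 3 sestrins thus had log2 fold changes of -0.40, 0.70 and -0.11 for Sesn1, Sesn2 and Sesn3, and none was called. Ei24 and Aen had edgeR adjusted p of 0.51 and 0.66.

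**Figure D4:**
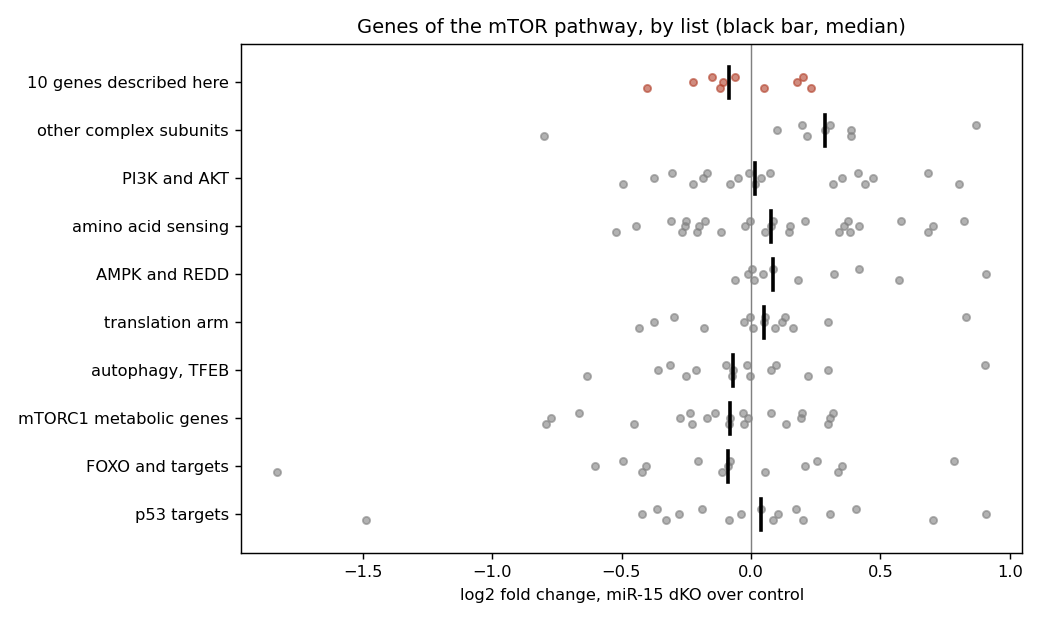
Log2 fold change, dKO over control, of every tested gene in the 10 described genes (red) and in the 9 pathway lists (grey), with the median of each list as a black bar. The medians lie between -0.09 and 0.29, and the list with the highest is that of the other complex subunits.

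For each of the 10, the gene whose log2 CPM had the highest Pearson r with it over the 8 libraries was taken from 7329 genes with a mean of at least 5 CPM. Rheb was most like Polr3k (r = 0.99), Tsc2 most like Qrich1 (r = 0.99) and Rictor most like Irf2 (r = 0.99). Sesn3 was most like Bud13 (r = 0.98), Rptor most like Nono (r = 0.97), Sesn1 most like Pithd1 (r = 0.97) and Mtor most like Gpt (r = 0.96). Tsc1 was most like Tspan32 (r = 0.95), Deptor most like Tspan14 (r = 0.94) and Mlst8 most like Gatsl3 (r = 0.92). With so many genes set against 8 libraries, values of this size are a description of these libraries only.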

How the data were processed

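Libraries were made from 4 dKO and 4 control mice with SMART-seq amplification, per the labels' protocols. The submitters' processing notes name Trimmomatic, STAR, featureCounts and GRCm39. For tool versions, annotation and strandedness: not given in the sources used here. What was deposited is 1 table of unnormalized counts for each gene. Columns were matched to mice by the code that each sample's description holds, leaving out 3 summary columns with no name. Of 24746 genes 9295 had no count. Among counts under 20, 72.7% to 77.3% were even, as when both mates of a pair are counted, so fits were repeated on halved counts. Depth was 25565090 to 34954230 counts per library. Pairs of libraries of 1 group gave a chi-square of 31.3 to 321 per degree of freedom, far beyond sampling noise, so none was counted as a duplicate. The series text counts 4 mice per group.

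Genes were filtered with filterByExpr (11363 left), scaled by TMM and tested over the whole table with edgeR 4.0.16 (robust quasi-likelihood F test, genotype as the only term, Benjamini-Hochberg adjustment) in R 4.3.3. The threshold was an adjusted p under 0.05. CPM values divide counts by TMM-scaled totals of the tested genes, with a prior count of 2 added on the log2 scale. Fold changes are dKO over control, and each SE is the fold change divided by the root of F. The fit was also run on simulated counts with known changes, whose outcome is not given here. Those counts were drawn for each gene independently, without the length balance or marker differences between libraries. They cannot show how the fit handles such differences. Alternatives were DESeq2 1.42.0, scaling by RLE or by the upper quartile, limma 3.58.1 (voom with quality weights), 2 other filters, an adjusted p under 0.1, a sex term from Xist and Ddx3y, a replicate block, halved counts, a follicular B-2 score as a term, and libraries left out. Seed matches, UTR and exon lengths come from GENCODE M21 (GRCm38, another build than the authors'), and 96.1% of the tested genes had a length.

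The 10 genes, the lists and the tests were chosen with earlier results of these data known. Named were all 10 genes, the 4 genes with the smallest p of each list and any list gene past the threshold, and the most alike gene of each of the 10 (clone names left out). 1 gene that this rule names is not reported here.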

Additional observations from a re-analysis of the deposited data

Results flagged for a closer look

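In 5 of 90 groups of 4 libraries, 1 library lay far from the other 3 (gap to the nearest over the whole range above Dixon's 95% critical value, which chance passes in about 1 of 20 groups). Tsc1 was at 4.33 CPM in dKO 4, and at 9.51 to 10.5 CPM in the other dKO libraries. Aen, a p53-induced nuclease gene, was at 9.22 CPM in dKO 1, and at 11.5 to 11.9 CPM in the others. Pdcd4 was at 89.7 CPM in control 3, and at 34.7 to 36.7 CPM in the other controls. Rps6 was at 2289 CPM in control 1, and at 1059 to 1221 CPM in the other controls. Ambra1, of autophagy, was at 2.19 CPM in control 1, and at 4.11 to 4.44 CPM in the others. Of these, only Tsc1 belongs to the 10 genes of the mTOR complexes and their regulators.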

How the results depend on the processing

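None of the 10 genes was called in any of the 19 alternative fits or at an adjusted p under 0.1 (185 values, lowest adjusted p 0.28, for Rictor without control 2 and control 4). Mtor, Mlst8, Tsc1 and Sesn1 kept their sign in every alternative in which they were tested. The other 6 did not. With 1 library left out the log2 fold change ran from -0.26 to 0.27 for Rptor, -0.21 to 0.39 for Rictor, -0.020 to 0.60 for Tsc2, -0.25 to 0.0039 for Rheb, -0.32 to 0.20 for Deptor and -0.31 to 0.23 for Sesn3. Rptor was at 0.049 with a sex term, 0.23 with the follicular B-2 score and 0.38 without control 2 and control 4. Sesn3 was at 0.11, 0.33 and 0.53 in these fits and at 0.0407 in limma voom. Deptor was at 0.00683 with a sex term and 0.0052 in limma voom. In edgeR with a sex term Sesn1 was at -0.21 (adjusted p = 0.74) and Rictor at 0.36 (adjusted p = 0.79). The cause was not tested.

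The number of genes called over the whole table was 10. It was 322 in DESeq2, 282 in limma voom, 40 without a filter, 18 with the follicular B-2 score, 59 without control 2 and control 4 and 75 at an adjusted p under 0.1, and 4 to 98 with 1 library left out (98 without control 1, 18 without control 2, 30 without control 3, 4 without dKO 2, dKO 3 or dKO 4). Of the pathway genes DESeq2 called 3, limma voom 4, and edgeR 0 to 1 with 1 library left out (Pdcd4, without control 3). The median of the other complex subunits lay between 0.13 and 0.36 over the alternatives, and that of the 10 genes between -0.23 and 0.20.

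The labels give no pairing of the samples, and none was clear from the replicate numbers. Deviations of same-numbered libraries correlated at -0.0089, -0.071, 0.061 and 0.15. Control 3 and control 4 correlated best with their own number, and control 1 and control 2 with another. With a replicate block 9 genes were called in place of 10 and none of the 10 mTOR genes, and the log2 fold change was 0.043 for Rptor and 0.000817 for Deptor.

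Depth limits Deptor most, at 20 to 63 counts per library, fewer fragments if both mates were counted. The mRNA levels do not measure mTOR activity, which is set largely at the protein level.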
